A study of Mus musculus with 21 samples.

Results

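The cytosolic ribosomal protein genes are the 84 gene symbols, of 34236 in the table of counts, that begin with Rpl or Rps and a number, or read Rpsa, Rplp0, Rplp1 or Rplp2. The rule used the symbol alone and no measured value, but it was set with earlier results of these data known. Genes for kinases and symbols that mark pseudogenes were left out. By symbol 51 of the 84 members belong to the large ribosomal subunit and 33 to the small subunit. Among them 7 are paralogs of another member, namely Rpl10l, Rpl22l1, Rpl39l, Rpl3l, Rpl7l1, Rps27l and Rps4y2, the older symbol of Rps4l, a transcribed pseudogene. RNA was sequenced from macrophages flow sorted as F4/80+CD64+ cells from kidneys of male C57BL/6J mice aged 24 weeks, with a sort time of 5 h. CD11chiMϕ and CD11cloMϕ, which the study describes as monocyte-derived, and kidney-resident macrophages (KRM) came from kidneys after sham surgery (Sham) or with renal artery stenosis (RAS). The 21 libraries are 3 of CD11chiMϕ Sham, 4 of CD11chiMϕ RAS, 3 of CD11cloMϕ Sham, 4 of CD11cloMϕ RAS, 4 of KRM Sham and 3 of KRM RAS. The labels do not say whether each library is 1 animal or a pool, so p-values measure only the spread between these libraries. In sorted bulk samples fewer cells of a type and less RNA per cell cannot be told apart.

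Each ribosome is built from ribosomal RNA and a full set of these proteins, and growing cells spend much of their transcription on making them. Most ribosomal protein mRNAs begin with a cytosine and a run of pyrimidines, the 5′ terminal oligopyrimidine (TOP) motif, through which mTORC1 and the RNA-binding protein LARP1 control their translation together. MYC and mTORC1 raise ribosome production, and monocytes and macrophages change their protein synthesis as they are recruited and activated.

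Sequences at or just after the transcription start are shown because most members with a known start hold a run of pyrimidines there. They are from RefSeq on GRCm38.p6, 30 bases each, 5′ to 3′ on the strand of the gene, and capitals mark the longest run of C and T where it has at least 8 bases. Rps6, Rpl14, Rps7, Rps12, Rpl38 and Rpl22l1 hold such a run, as does the elongation factor gene Eef2, and Rps27l and Rpl7l1 do not. The runs of Rps7 and Eef2 begin 22 and 14 bases downstream of the annotated start, and the bases printed for these genes do not include it.
Rps6, chr4:86857349-86857378, minus strand: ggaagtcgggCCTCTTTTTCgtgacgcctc
Rpl14, chr9:120571502-120571531, plus strand: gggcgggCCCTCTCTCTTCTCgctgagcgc
Rps7, chr12:28635911-28635940, minus strand: ctgtccccaCCTCTTTTCTTCCgccacccg
Rps12, chr10:23787182-23787211, minus strand: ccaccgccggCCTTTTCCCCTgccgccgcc
Rpl38, chr11:114668568-114668597, plus strand: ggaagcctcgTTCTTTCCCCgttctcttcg
Rpl22l1, chr3:28805499-28805528, plus strand: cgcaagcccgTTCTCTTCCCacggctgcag
Rps27l, chr9:66946076-66946105, plus strand: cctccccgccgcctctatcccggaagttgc
Rpl7l1, chr17:46782637-46782666, minus strand: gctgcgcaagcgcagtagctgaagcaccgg
Eef2, chr10:81176634-81176663, plus strand: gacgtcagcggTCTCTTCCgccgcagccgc

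A start window was found for 63 of the 84 members. Between 10 bases before and 50 bases after the annotated start, on the strand of the gene, 41 of the 63 (65.1%) held a run of at least 8 pyrimidines, against 21.3% of 27025 genes and 15.9% of 69 genes of mitochondrial ribosomal proteins. Of the 57 members with a window that are not paralogs 39 held one, so members other than paralogs also lacked it. The longest run had a median of 10 bases in the members and 5 bases in all genes. The letters CCGGAAG, a core that ETS family factors bind, lay on either strand between 250 bases before and 50 after the start in 39.7% of the members, 36.2% of the mitochondrial ribosomal protein genes and 9.12% of all genes. The TATA box letters TATAAA were found in 9.52% of the members and 14.2% of all genes. A match of letters is a description of the window and not a site.

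Libraries held 6891149 to 18592396 counts and 14616 to 17719 genes, and several stood apart. CD11chiMϕ Sham replicate 3 had 18.4% of its counts in mitochondrial genes, against 0.749% to 5.02% in the others, and 50578 CPM (counts scaled to library size) summed over 10 genes of the proximal tubule, against 78.3 to 9314 CPM. KRM RAS replicates 2 and 3 summed 6187 and 4495 CPM over 9 genes of the loop and distal tubule, against 8.23 to 1681 CPM elsewhere. Of the sort genes Emr1 and Fcgr1 were low in CD11chiMϕ RAS replicates 2 to 4. Emr1, which encodes F4/80, was at 762, 196, 128 and 119 CPM in replicates 1 to 4, where every library outside this group had at least 319 CPM. Fcgr1, which encodes CD64, was at 117, 45.5, 20.4 and 12.4 CPM, against 41.1 to 244 CPM outside the group, so that replicate 2 lay within that range. Itgax, which encodes CD11c, was at 365, 457, 925 and 921 CPM in the same libraries. Itgam, which encodes CD11b, was at 674, 225, 627 and 690 CPM there by library totals, so that only replicate 2 was low. Among genes of dendritic cells, picked after their values were seen, Ccr7 was at 42.1, 230, 404 and 430 CPM, Cd209a at 693, 1437, 4033 and 4262 CPM, and Zbtb46 at 73.8, 62.2, 127 and 167 CPM. Replicates 3 and 4 were high in all 3 of these genes, whereas replicate 2 was within the Sham range of CD11chiMϕ for Cd209a (223 to 1437 CPM) and Zbtb46 (18.3 to 78.9 CPM). Flt3, picked in the same way, changed least in RAS against Sham of CD11chiMϕ. Its log2 fold change was 0.45, against 3.08, 1.65 and 1.02 for Ccr7, Cd209a and Zbtb46, and none of them was called. The column of counts for KRM RAS replicate 1 does not correspond to the column of that name in the second deposited table, with r = 0.09 over 12333 genes where the other 20 libraries gave 0.915 to 0.966. Summed over the marker lists the libraries ranged from 1192 to 6478 CPM for 6 macrophage genes, 177 to 2461 for B cells, 0.618 to 311 for T and NK cells, 9.04 to 3180 for neutrophils, 9.38 to 249 for endothelium, 9.83 to 608 for stroma and 2.10 to 813 for erythroid cells.

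The members together took 0.796% to 3.64% of all counts, and CD11chiMϕ from RAS kidneys were the group in which they varied most. In CD11chiMϕ the share was 1.49%, 1.42% and 1.29% in Sham and 1.35%, 3.64%, 2.22% and 2.09% in RAS replicates 1 to 4, which gives 1.40% ± 0.102 (SD, n = 3) and 2.33% ± 0.955 (SD, n = 4). In CD11cloMϕ the share was 1.32%, 1.10% and 1.03% in Sham and 1.05%, 1.14%, 0.973% and 0.796% in RAS, or 1.15% ± 0.153 (SD, n = 3) and 0.989% ± 0.145 (SD, n = 4). In KRM it was 1.36%, 0.958%, 0.979% and 1.02% in Sham and 0.948%, 1.01% and 0.851% in RAS, or 1.08% ± 0.190 (SD, n = 4) and 0.937% ± 0.0806 (SD, n = 3). CD11chiMϕ RAS replicates 2 to 4 lay above every other library, and replicate 1 lay inside the range of the Sham libraries. Counting error is small beside these gaps: the 95% Wilson interval was 3.62% to 3.65% for CD11chiMϕ RAS replicate 2 and 0.790% to 0.802% for CD11cloMϕ RAS replicate 4.

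**Figure D1:**
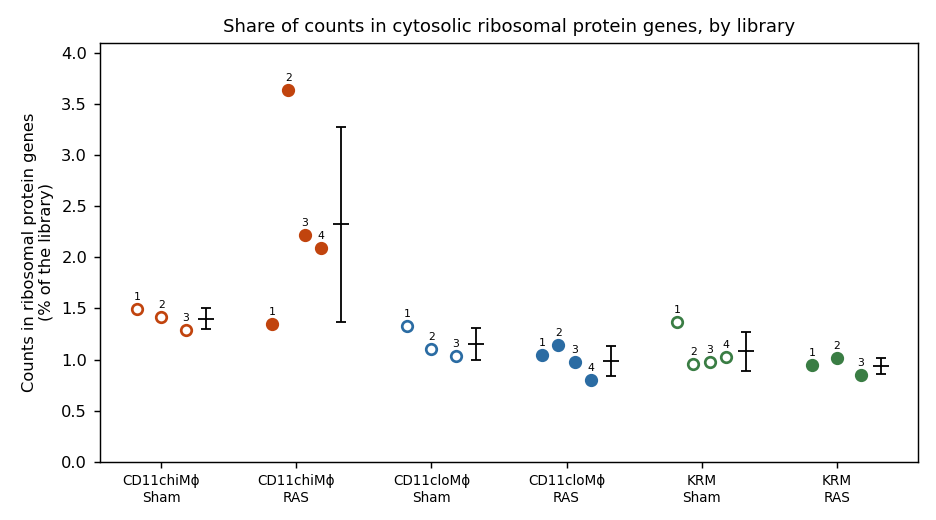
Share of all counts in the 84 ribosomal protein genes, in percent, for each of the 21 libraries, with the mean and SD of each group. Replicates 2 to 4 of CD11chiMϕ RAS, at 3.64%, 2.22% and 2.09%, sit above all others, which lie between 0.796% and 1.49%.

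The subunits kept a narrow ratio. Small over large subunit counts stayed between 0.716 and 0.817 in the 21 libraries while the summed share varied from 0.796% to 3.64%. Of 81 members with enough counts to test, 80 had their highest group mean in CD11chiMϕ RAS and 1, Rps4y2, in KRM RAS. The lowest group mean was in KRM RAS for 70 members, in CD11cloMϕ RAS for 6, in KRM Sham for 3 and in CD11cloMϕ Sham for 2. The highest single library was CD11chiMϕ RAS replicate 2 for 76 of the 81, and the others were Rpl15 and Rps6 (CD11chiMϕ RAS replicate 3), Rps13 (CD11cloMϕ RAS replicate 2), Rpl7l1 (CD11cloMϕ Sham replicate 1) and Rps4y2 (KRM RAS replicate 2). Against each gene's own mean over the libraries the median member stood at a log2 difference of -0.05, 1.68, 1.10 and 0.97 in CD11chiMϕ RAS replicates 1 to 4, and between -0.70 and 0.23 in the other libraries.

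**Figure D2:**
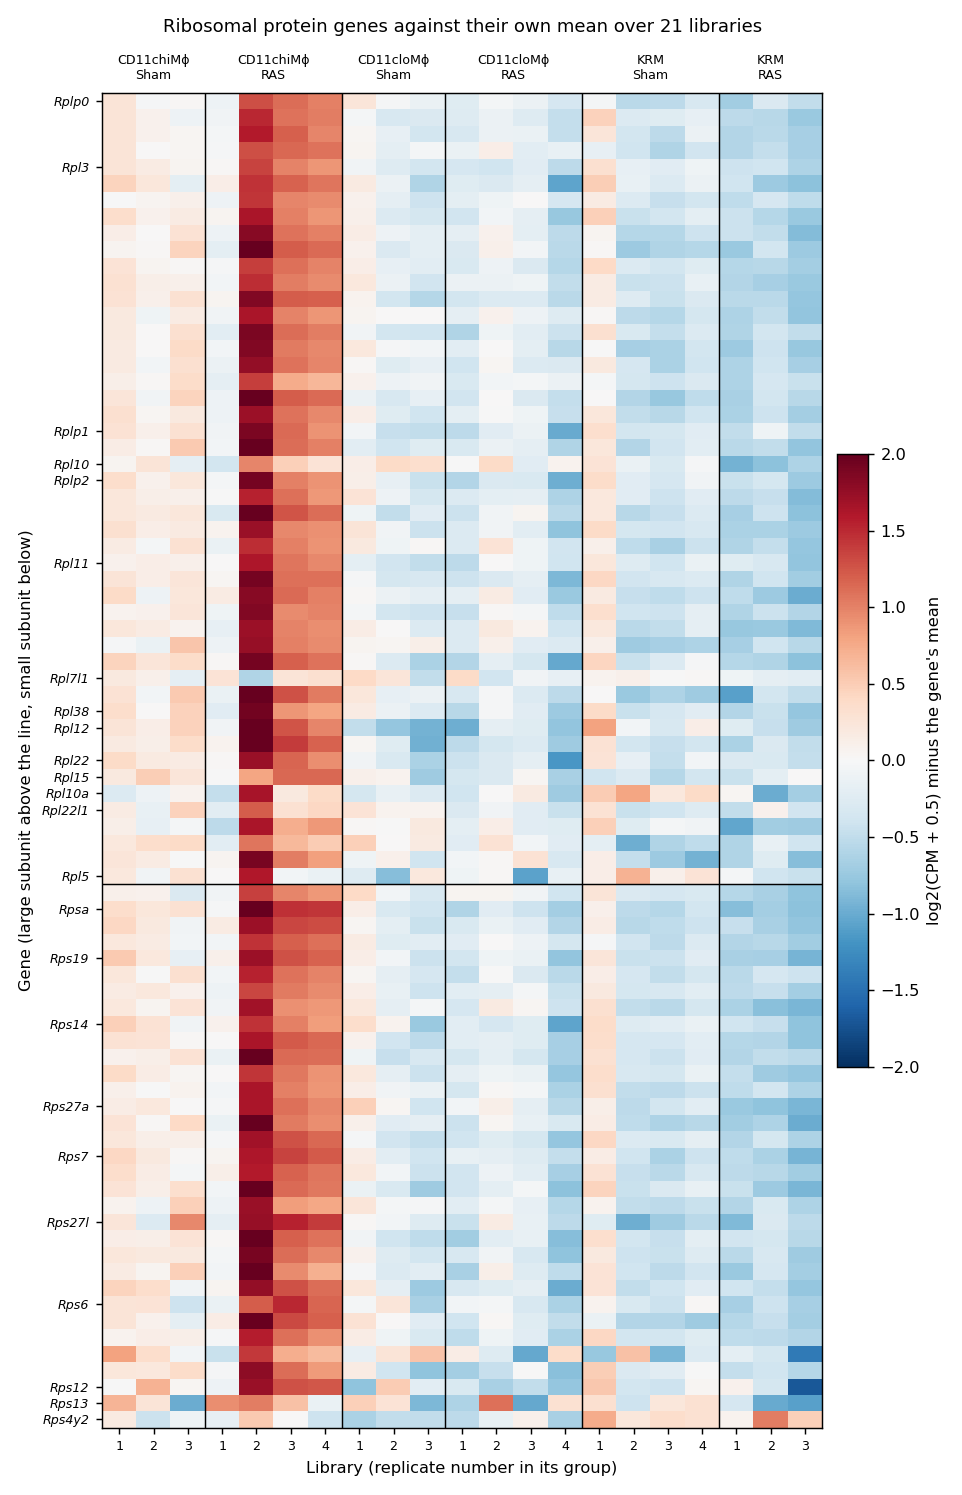
Log2 difference of each of the 81 tested members (rows) from its own mean over the 21 libraries (columns, by group), as log2(CPM + 0.5). Replicates 2 to 4 of CD11chiMϕ RAS are high in nearly every row, with medians of 1.68, 1.10 and 0.97, and the KRM RAS libraries are low, with medians of -0.57, -0.45 and -0.70.

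Levels of the members are given per length, as CPM per kb of the median coding transcript. Among the highest medians over the libraries were 527 CPM per kb for Rps29, 501 for Rplp0 and 458 for Rps9, and outside the paralogs the lowest was 4.50 for Rpl5. By CPM without length Rplp0, Rps9 and Rpl13 were among the most abundant. The members are short, with a median of 711.5 nt against 2004 nt for all genes with a length. Processed copies elsewhere in the genome complicate some of the levels: 171 annotated pseudogene rows carry a member's symbol, and they held 85.2% of the counts of gene and pseudogene together for Rpl15, 84.7% for Rpl27, 78.7% for Rpl10a, 75.0% for Rps12 and 69.7% for Rpl10. The values of these 5 genes are therefore uncertain. Copies under other symbols were not looked for, so other members with low levels, Rpl5 among them, may be uncertain as well. Among the paralogs, Rpl10l had 0 counts in every library, Rpl39l 0 to 4 and Rpl3l 0 to 20, and these 3 were not tested.

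In RAS kidneys 80 of 81 members had a lower estimated level in KRM than in CD11chiMϕ, 37 were called lower and 0 were called higher. Of 81 tested, 37 fell below an adjusted p of 0.05 by edgeR's quasi-likelihood test with Benjamini-Hochberg adjustment, all 37 lower in KRM, where 5.07% of all genes tested were called lower. The called members were 18 of 48 from the large subunit and 19 of 33 from the small. The median log2 fold change was -1.58 over the 81 members, with quartiles of -1.76 and -1.44, and 0.03 over all genes. The 3 KRM and 4 CD11chiMϕ libraries did not overlap, with KRM lower, for 72 members, against 15.8% of all genes.

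Among the called members with the smallest adjusted p in KRM against CD11chiMϕ were Rps19, which matures the small subunit and is mutated in Diamond-Blackfan anaemia, Rps7, Rpl32 and Rps27a, which is made as a fusion with ubiquitin. Rps19 was at 319, 976, 718 and 671 CPM in CD11chiMϕ RAS replicates 1 to 4 and at 189, 187 and 156 CPM in KRM RAS. The groups did not overlap, and the log2 fold change was -1.87 (standard error, SE, 0.39 and adjusted p = 0.0349 by edgeR). Rps7, Rpl32 and Rps27a had log2 fold changes of -1.80, -1.63 and -1.81, with adjusted p-values of 0.0354, 0.0355 and 0.0366. The largest change was in Rpsa, a small subunit protein that also binds laminin at the cell surface, at 308, 1754, 866 and 846 CPM against 175, 196 and 179 CPM. Its log2 fold change was -2.32 (SE 0.55 and adjusted p = 0.0423 by edgeR). Of the 44 members not called, 37 had an adjusted p under 0.1, and Rps4y2 and Rpl7l1 stood apart, at log2 fold changes of 0.62 and -0.20 with adjusted p-values of 0.282 and 0.609.

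The number of calls in KRM against CD11chiMϕ depended on single libraries and on the replicate block. Blocked by replicate number, edgeR called 0 members, with a median log2 fold change of -1.44. Without CD11chiMϕ RAS replicate 1, the library with the share of a Sham library, 75 members were called. Without CD11chiMϕ RAS replicate 2, 3 or 4, or without KRM RAS replicate 2 or 3, 0 were called by edgeR, and without KRM RAS replicate 1, 27 were called. The median log2 fold change stayed between -1.78 and -1.26 in these 7 fits. DESeq2 called 74 with all libraries. The unadjusted p of edgeR was under 0.05 for 76, all lower, against 15.3% of all genes. Shares of all genes called by DESeq2 or without 1 library are not given, so 74 and 75 cannot be set beside them. Within CD11chiMϕ RAS the replicates with high members were those with low Emr1 (762, 196, 128 and 119 CPM in replicates 1 to 4), low Fcgr1 and high Ccr7 (42.1, 230, 404 and 430 CPM), and their macrophage marker sums were 4763, 1378, 2343 and 2356 CPM against 5978, 3402 and 4299 CPM in KRM RAS. The mitochondrial share was 1.03%, 5.02%, 1.80% and 1.87% in these 4 libraries, and 4.51% and 4.86% in KRM RAS replicates 2 and 3, where the members were low. B cell sums were 1537, 2461, 470 and 526 CPM, high in replicate 1 and low in replicates 3 and 4, although the study's sort excluded B cells along with other lineages. Genes other than the members with transcripts of up to 1000 nt had a median log2 fold change of -0.22, and those over 4000 nt 0.15. The part of each in the result was not tested.

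CD11chiMϕ were compared with CD11cloMϕ from RAS kidneys on the same 4 CD11chiMϕ libraries, so the values are not independent of those above. Of 81 members 46 were called, all higher in CD11chiMϕ, where 5.15% of all genes were called higher, and 24 were from the large and 22 from the small subunit. All 81 had a fold change above 0, with a median log2 value of 1.32 against 0.01 over all genes. The groups did not overlap for 34 members, against 9.35% of all genes with CD11chiMϕ higher. Rpl36a, Rps12 and Rpl14 were among the members with the smallest adjusted p-values. Rpl36a was at 43.7, 173, 110 and 95.7 CPM in CD11chiMϕ and at 28.8, 32.6, 34.4 and 25.4 CPM in CD11cloMϕ, with every CD11chiMϕ library above every CD11cloMϕ library and a log2 fold change of 1.80 (SE 0.36 and adjusted p = 0.0197 by edgeR). Rps12 and Rpl14 had log2 fold changes of 1.77 and 1.58 and adjusted p-values of 0.021 and 0.0239. Rpsa again had the largest fold change, at 2.06 (SE 0.46 and adjusted p = 0.0263), and Rpl7l1 the smallest, at 0.13. Leaving out CD11chiMϕ RAS replicate 1 gave 73 calls and leaving out replicate 2 gave 7. With CD11chiMϕ RAS replicates 3 and 4 summed, edgeR called 0 and the median was 1.35. Without CD11chiMϕ RAS replicate 3 or 4, or without CD11cloMϕ RAS replicate 2 or 4, edgeR called 0, without CD11cloMϕ RAS replicate 1 it called 2 and without replicate 3 it called 20. DESeq2 called 71, and the unadjusted p was under 0.05 for 73, all higher, against 14.6% of all genes, with medians of 1.03 to 1.55 across the fits without 1 library.

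Members in KRM and CD11cloMϕ from RAS kidneys differed less. Rpl10, which joins the large subunit in its last maturation steps, was the 1 member called, lower in KRM, where 5.89% of all genes were called lower. It was at 66.6, 72.4 and 84.0 CPM in KRM RAS, the lowest values of the 21 libraries, and at 128, 168, 110 and 135 CPM in CD11cloMϕ RAS. The log2 fold change was -0.82 (SE 0.20 and adjusted p = 0.0477 by edgeR), and over the alternatives the adjusted p ranged from 0.00327 to 0.164. The call was lost without CD11cloMϕ RAS replicate 1, 2 or 4 (0.075, 0.11 and 0.111) and without KRM RAS replicate 1, 2 or 3 (0.0534, 0.164 and 0.13), as it was with pseudogene counts added (0.0649), where the level of Rpl10 is uncertain, and without KRM RAS replicate 1 another member was called, higher in KRM. The median over the members was -0.26 against 0.06 over all genes. Scaling to the total library size moved the median of all genes from 0.06 to 0.26, and that of the members to -0.06. In KRM against CD11chiMϕ the same scaling moved all genes from 0.03 to 0.26 and the members from -1.58 to -1.29.

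**Figure D3:**
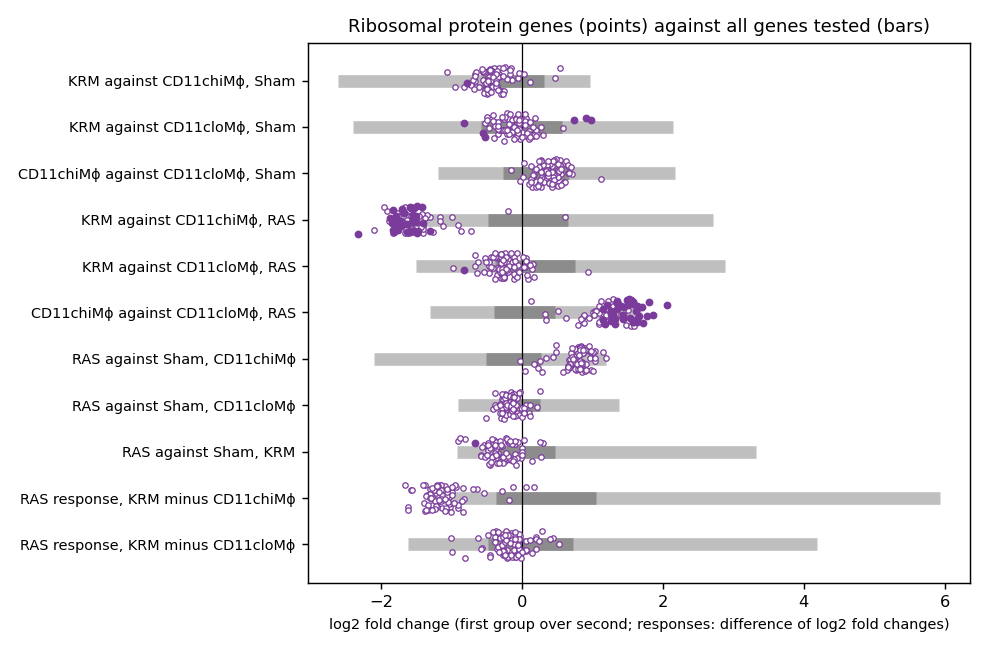
Log2 fold changes of the 81 tested members in each comparison (points, filled where called, spread vertically at random), over bars from the 5th to the 95th (light) and 25th to 75th (dark) percentile of all genes tested. The members lie away from 0 in both RAS comparisons of CD11chiMϕ, with medians of -1.58 and 1.32, and these share the CD11chiMϕ RAS libraries.

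In Sham kidneys CD11chiMϕ were compared first with CD11cloMϕ. In CD11chiMϕ against CD11cloMϕ 79 of 81 members had a fold change above 0, with a median log2 value of 0.38 against 0.13 over all genes, and edgeR called 0, where 1.52% of all genes were called in either direction. The unadjusted p was under 0.05 with a higher level in CD11chiMϕ for 15 members, against 9.96% of all genes, and the groups did not overlap for 25, against 12.5% of all genes. DESeq2 called 1. The smallest adjusted p was 0.078, of Rpl12, a protein at the base of the stalk where elongation factors bind. Rpl12 was at 62.4, 56.8 and 71.5 CPM in CD11chiMϕ and 36.6, 30.3 and 26.9 CPM in CD11cloMϕ, without overlap, for a log2 fold change of 1.12 (SE 0.23). Without CD11chiMϕ Sham replicate 3, the library with the tubular and mitochondrial counts, 1 member was called. Without number 3 of both groups the median of the members was 0.20 against 0.01 over all genes.

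KRM against CD11chiMϕ in Sham kidneys had 77 of 81 members with a fold change under 0 and a median log2 value of -0.43, against -0.07 over all genes. Rpl15 was called, lower in KRM, where 4.13% of all genes were called lower. It was at 19.7, 21.6, 17.4 and 20.2 CPM in KRM and at 30.0, 36.9 and 30.9 CPM in CD11chiMϕ, without overlap, and differed by -0.78 on the log2 scale (SE 0.15 and adjusted p = 0.033 by edgeR). Blocked by replicate number, its adjusted p was 0.206, and without CD11chiMϕ Sham replicate 1 or 2 or any 1 KRM library it lay between 0.0629 and 0.12. DESeq2 called 10 members, and without CD11chiMϕ Sham replicate 3 edgeR called 4. The level of Rpl15 is uncertain because of its pseudogenes.

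Between KRM and CD11cloMϕ of Sham kidneys, which differed in many genes, few members were called. There were 3 higher, where 19.5% of all genes were higher, and 3 lower, where 22.4% were lower. The median of the members was -0.08 on the log2 scale and that of all genes -0.04. The higher members were Rps4y2, Rpl10a and Rpl12. Rps4y2 was at 21.2, 14.6, 16.1 and 15.4 CPM in KRM and 7.86, 8.69 and 8.73 CPM in CD11cloMϕ, without overlap, a log2 fold change of 0.97 (SE 0.21 and adjusted p = 0.00613 by edgeR, and at most 0.0285 in every alternative). Rpl10a, a large subunit protein carried by only part of the ribosomes in some cells, was at 29.1, 35.2, 23.5 and 26.7 CPM against 15.7, 18.2 and 16.6 CPM, a log2 fold change of 0.74 (adjusted p = 0.0105), which was 0.11 (adjusted p = 0.709) once pseudogene counts were added. Rpl12 had a log2 fold change of 0.91 (adjusted p = 0.0284), and its call was lost without CD11cloMϕ Sham replicate 2 or 3 or KRM Sham replicate 4 (0.0846, 0.0583 and 0.0519). Over all alternatives its adjusted p reached 0.0902.

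The lower members were Rpl27, Rps26 and Rps27l, at log2 fold changes of -0.83, -0.55 and -0.53 with adjusted p-values of 0.0232, 0.0461 and 0.048 by edgeR. Blocked by replicate number, Rps26 and Rps27l were at adjusted p-values of 0.0529 and 0.0531, and Rpl8, picked after its values were seen, which was at -0.47 without the block (adjusted p = 0.0643), was called lower at -0.49 (adjusted p = 0.04). With pseudogene counts added Rpl27 was at -0.40 (adjusted p = 0.161). The call of Rpl27 was lost without CD11cloMϕ Sham replicate 1 (0.0946) or KRM Sham replicate 2, 3 or 4 (0.0546 to 0.0562). Those of Rps26 and Rps27l were also lost without CD11cloMϕ Sham replicate 1 or 2 or KRM Sham replicate 2, 3 or 4, with adjusted p-values of 0.0917 to 0.188 for Rps26 and 0.0929 to 0.157 for Rps27l. Over all alternatives the adjusted p reached 0.193 for Rps26 and 0.325 for Rps27l. In the fits without 1 library the median of the members ran from -0.28 to 0.05, so its sign was not fixed, and 2 members were called without KRM Sham replicate 4, 3 without CD11cloMϕ Sham replicate 1, 10 without CD11cloMϕ Sham replicate 3 and 24 without KRM Sham replicate 1.

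RAS was compared with Sham within each population. In CD11chiMϕ 80 of 81 members had a fold change above 0, with a median log2 value of 0.81 against -0.09 over all genes, but edgeR called 0 members and 0 of all genes, or 0% in either direction, and DESeq2 called 0 members. The unadjusted p was under 0.05 for 7 members, all higher in RAS (among them Rpl36a, Rps16, Rps26, Rps6 and Rps7), where 4.96% of all genes were higher. The smallest adjusted p was 0.508. Without CD11chiMϕ RAS replicate 2 the median of the members was 0.43, and without replicate 1 it was 1.04. In the same comparison Emr1 had a log2 fold change of -1.13 and Ccr7 of 3.08 (adjusted p = 0.595 and 0.508), whose part in the result was not tested. CD11chiMϕ Sham replicate 3 held 18.4% mitochondrial counts and 50578 CPM of proximal tubule genes, and without it the median of the members was 0.81. In CD11cloMϕ the median was -0.14 against -0.02 (-0.05 without Sham replicate 1, -0.06 without RAS replicate 4 and -0.22 without RAS replicate 2), and edgeR and DESeq2 called 0 members. Of all genes edgeR called 0 there, and 1 member, Rpl22l1, had an unadjusted p under 0.05, with a log2 fold change of -0.41, where 3.37% of all genes were lower.

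In KRM the median RAS against Sham log2 value was -0.30 against -0.00 over all genes, and 74 of 81 members had a fold change under 0. Without KRM Sham replicate 1, the library of its group with the highest share of members, the median was -0.10. KRM RAS replicates 2 and 3 also had loop and distal tubule sums of 6187 and 4495 CPM (13.3 to 251 CPM in KRM Sham), stroma sums of 554 and 608 CPM (20.5 to 38.9 CPM) and mitochondrial shares of 4.51% and 4.86% (1.10% to 1.82%), and the counts of KRM RAS replicate 1 do not correspond to the second table. T and NK cell sums were 311, 39.8 and 33.3 CPM in KRM RAS replicates 1 to 3 (1.83 to 2.47 CPM in KRM Sham). Erythroid sums were 813, 316 and 262 CPM (85.9 to 194 CPM), and B cell sums 2406, 446 and 407 CPM (613 to 750 CPM). Of the dendritic cell genes Cd209a and Ccr7 were called higher in RAS, Flt3 was called lower and Zbtb46 was not called. Their log2 fold changes were 2.26, 2.13, -2.55 and 1.73. The part of these in the result was not tested. The RAS and Sham libraries did not overlap, with RAS lower, for 35 members, against 17.1% of all genes. Rpl10 was called lower in RAS, where 2.37% of all genes were lower: it went from 156, 118, 104 and 126 CPM to 66.6, 72.4 and 84.0 CPM, a log2 fold change of -0.67 (SE 0.16 and adjusted p = 0.0461 by edgeR). The comparison shares the KRM RAS libraries with that against CD11cloMϕ. With its pseudogene counts added the value was -0.26 (adjusted p = 0.275), and leaving out KRM Sham replicate 1, 2 or 4 or KRM RAS replicate 2 or 3 gave adjusted p-values of 0.106 to 0.152. Unadjusted p was under 0.05 for 14 members, all lower in RAS, where 14.6% of all genes were, a share near that of the members. Among the 14 was Rpl10a, at 20.7, 9.91 and 12.5 CPM in RAS against 23.5 to 35.2 CPM in Sham (log2 fold change -0.91, adjusted p = 0.0637). DESeq2 called 5 members, and without KRM RAS replicate 1 edgeR called 7.

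The change with RAS in KRM minus that in CD11chiMϕ was tested as an interaction. Of 81 members 79 had a value under 0, with a median log2 difference of -1.16 against 0.09 over all genes. edgeR called 0 members and 0% of all genes. The unadjusted p was under 0.05 for 59 members, all under 0, where 4.41% of all genes were, and DESeq2 called 7. The smallest adjusted p was 0.105, of Rpl32, at -1.38 (SE 0.41). Without CD11chiMϕ RAS replicate 1, 3 members were called. For KRM minus CD11cloMϕ the median was -0.17 against 0.02, and 0.02 for the members with total library size, so its sign depended on the scaling. It was -0.35 without CD11cloMϕ Sham replicate 1, -0.06 without CD11cloMϕ Sham replicate 3 and -0.03 without KRM Sham replicate 1. There edgeR and DESeq2 called 0 members, where 0.245% of all genes were called by edgeR, and 1 member, Rpl10a, had an unadjusted p under 0.05, at -1.0, where 9.56% of all genes were under 0. Without KRM RAS replicate 1, 1 member was called there and 0 in KRM minus CD11chiMϕ.

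The members with particular roles mostly followed the median. The stalk proteins Rplp0, Rplp1 and Rplp2 recruit the elongation factors. Rplp0 was at 428, 1119, 994 and 924 CPM in CD11chiMϕ RAS and between 282 and 546 CPM in all other groups, and its log2 fold changes were -1.35 in KRM against CD11chiMϕ RAS (adjusted p = 0.0575) and 1.10 in CD11chiMϕ against CD11cloMϕ RAS (adjusted p = 0.0548). In the latter Rplp1 and Rplp2 were called, at 1.56 and 1.63 (adjusted p = 0.0404 and 0.0326). Rps6, the small subunit protein phosphorylated by S6 kinase downstream of mTORC1, was at 76.9, 196, 239 and 190 CPM in CD11chiMϕ RAS and 53.1, 62.9 and 52.7 CPM in KRM RAS. It was called in both comparisons, at -1.59 (adjusted p = 0.0426) and 1.30 (adjusted p = 0.0405), by edgeR.

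Rpl5 and Rpl11 form, with 5S ribosomal RNA, the particle that binds MDM2 when ribosome assembly fails. Rpl11 was at 111, 338, 231 and 214 CPM in CD11chiMϕ RAS and at 92.7, 88.5 and 63.1 CPM in KRM RAS, with log2 fold changes of -1.41 (adjusted p = 0.0566) and, against CD11cloMϕ, 1.26 (adjusted p = 0.042). Rpl5 departed from it, at 6.75, 21.3, 6.38 and 6.07 CPM in CD11chiMϕ RAS, so that only replicate 2 was high, and its log2 fold changes of -0.86 and 0.88 had adjusted p-values of 0.328 and 0.305. Rps14, another small subunit assembly protein, was at 258, 667, 491 and 435 CPM in CD11chiMϕ RAS and 186, 176 and 140 CPM in KRM RAS, and was called in both comparisons (-1.42, adjusted p = 0.0458, and 1.35, adjusted p = 0.0343). Rpl3, near the centre where peptide bonds form, was called in both as well, at -1.31 and 1.26 (adjusted p = 0.0498 and 0.0291).

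Rpl38, needed for translation of a subset of Hox mRNAs in the embryo, was at 59.0, 265, 128 and 119 CPM in CD11chiMϕ RAS and at 46.0, 50.9 and 40.4 CPM in KRM RAS. Its log2 fold changes, -1.60 and 1.41, missed the threshold (adjusted p = 0.0719 and 0.0624). Rpl12 was at 49.6, 250, 125 and 102 CPM in CD11chiMϕ RAS, and its fold change was called against CD11cloMϕ (1.87, adjusted p = 0.0348) and not against KRM (-1.77, adjusted p = 0.0666). Rps12 was at 12.8, 47.3, 34.4 and 33.5 CPM there against 14.8, 10.8 and 3.94 CPM in KRM RAS, for a log2 difference of -1.66 (adjusted p = 0.0923). In each of these 3 genes CD11chiMϕ RAS replicate 2 was the highest library and replicate 1 the lowest of its group.

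**Figure D4:**
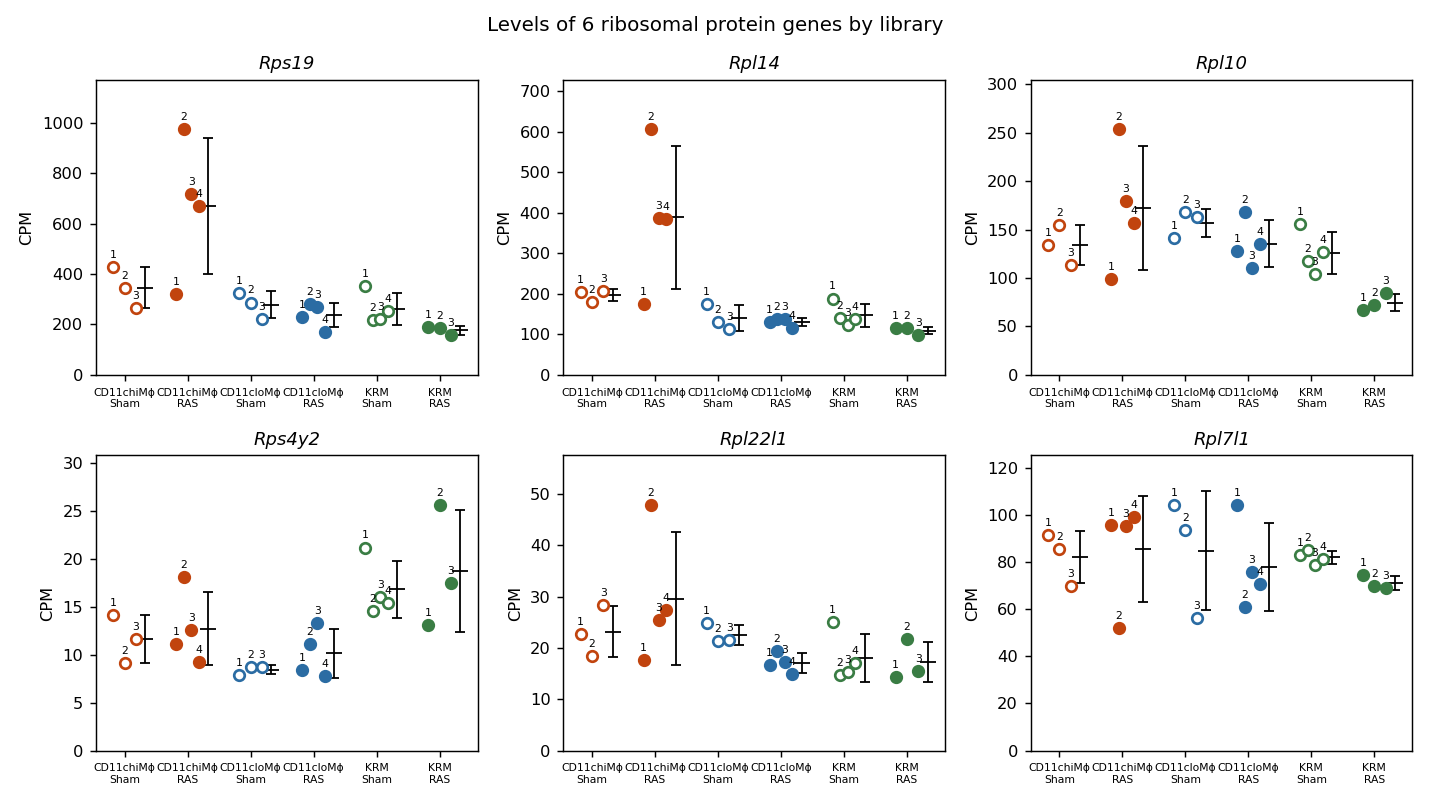
Level in CPM, on linear axes from 0, of Rps19, Rpl14, Rpl10, Rps4y2, Rpl22l1 and Rpl7l1 in each of the 21 libraries (points numbered by replicate, open for Sham and filled for RAS), with the mean and SD of each group beside them. Rps19 reaches 976 CPM in CD11chiMϕ RAS replicate 2 against 156 to 189 CPM in KRM RAS, Rpl10 is lowest in KRM RAS at 66.6 to 84.0 CPM, and Rpl7l1 has its lowest value, 52.0 CPM, where most members are highest.

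The paralogs did not all follow their partners. Rpl7l1, a protein of early large subunit assembly, was at 95.8, 52.0, 95.3 and 99.1 CPM in CD11chiMϕ RAS, with its lowest value of the 21 libraries in replicate 2, where Rpl7 had its highest, 735 CPM. Its share of the pair was 6.61% in that library and up to 30.5% elsewhere, and no comparison called it. Rpl22l1 made up 24.6% to 49.6% of its pair with Rpl22, with 29.1% ± 3.58 (SD, n = 4) in CD11chiMϕ RAS and 45.2% ± 3.51 (SD, n = 3) in CD11cloMϕ Sham. In CD11chiMϕ against CD11cloMϕ RAS Rpl22 was called, at 1.57 (adjusted p = 0.0305), and Rpl22l1 was at 0.80 (adjusted p = 0.134). The difference between the paralog and its partner was not tested. Rps27l, a target of p53, was 30.7% to 73.0% of its pair with Rps27, and was called higher in CD11chiMϕ than in CD11cloMϕ from RAS kidneys (1.51, adjusted p = 0.0406). Rps4y2 was 1.89% to 14.3% of its pair with Rps4x, with 11.1% ± 3.01 (SD, n = 3) in KRM RAS and 2.94% ± 1.63 (SD, n = 4) in CD11chiMϕ RAS. Paralogs share sequence with their partners, and how reads that match both were assigned can shift these shares.

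Fold changes were set beside the start site sequences. In KRM against CD11chiMϕ RAS the 40 tested members with a pyrimidine run, such as Rps7, had a median log2 value of -1.61 and the 20 without one -1.53. In CD11chiMϕ against CD11cloMϕ RAS the medians were 1.36 and 1.15. No test was made of these differences.

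Other genes of translation were followed by lists. In KRM against CD11chiMϕ RAS the median log2 fold change was -1.13 over 8 elongation factor genes (2 called lower), -1.13 over 24 other genes with TOP mRNAs (6 lower), -0.47 over 38 initiation factor genes (3 lower), -0.38 over 76 genes of the mitochondrial ribosome (2 lower), -0.33 over 90 ribosome biogenesis genes (6 lower) and -0.23 over 30 MYC and mTORC1 regulators (0 called), where 5.07% of all genes were called lower. The elongation factor and TOP lists overlap. The medians of these lists were under 0, as was that of the members. Fbl, the methyltransferase that modifies ribosomal RNA, was at 55.2, 166, 112 and 104 CPM in CD11chiMϕ and 34.2, 34.7 and 34.4 CPM in KRM (log2 fold change -1.62, adjusted p = 0.0398). Pabpc1, the poly(A)-binding protein, was called at -1.66 (adjusted p = 0.0421), while Eef1a1, Eef2, Tpt1 and Gnb2l1 (Rack1) had values of -1.13, -1.13, -1.74 and -1.71 with adjusted p-values of 0.0798, 0.0734, 0.069 and 0.0517.

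In CD11chiMϕ against CD11cloMϕ RAS the medians were 0.88 for elongation factors (1 higher and 1 lower), 0.84 for TOP genes (4 higher), 0.53 for the mitochondrial ribosome (0 called), 0.26 for initiation factors (1 higher), 0.21 for biogenesis (3 higher) and 0.01 for regulators (2 higher and 3 lower), where 5.15% of all genes were called higher and 3.12% lower. Gnb2l1, which encodes a scaffold protein on the small subunit, was called higher, at 1.42 (adjusted p = 0.0486). In KRM against CD11cloMϕ Sham, where 22.4% of all genes were lower and 19.5% higher, 25 of 38 initiation factor genes were lower and 0 higher. The mitochondrial ribosome, with 18 of 76 lower, was near the share of all genes. Of the other lists 9 of 24 TOP genes were lower and 1 higher, 2 of 8 elongation factors lower, 15 of 90 biogenesis genes lower and 11 higher, and 6 of 30 regulators lower and 8 higher. Myc was higher in KRM there, at 102, 114, 89.9 and 103 CPM against 15.8, 19.8 and 37.2 CPM (log2 fold change 2.06, adjusted p = 0.000546), and at 0.84 against CD11chiMϕ Sham (adjusted p = 0.0306). In CD11chiMϕ RAS Myc was at 51.2, 23.9, 59.8 and 45.5 CPM in replicates 1 to 4, and its relation to the members was not tested. The mTORC1 target Eif4ebp1 was lower in KRM than in CD11cloMϕ in Sham (-0.87, adjusted p = 0.00628) and RAS (-1.14, adjusted p = 0.0447).

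**Figure D5:**
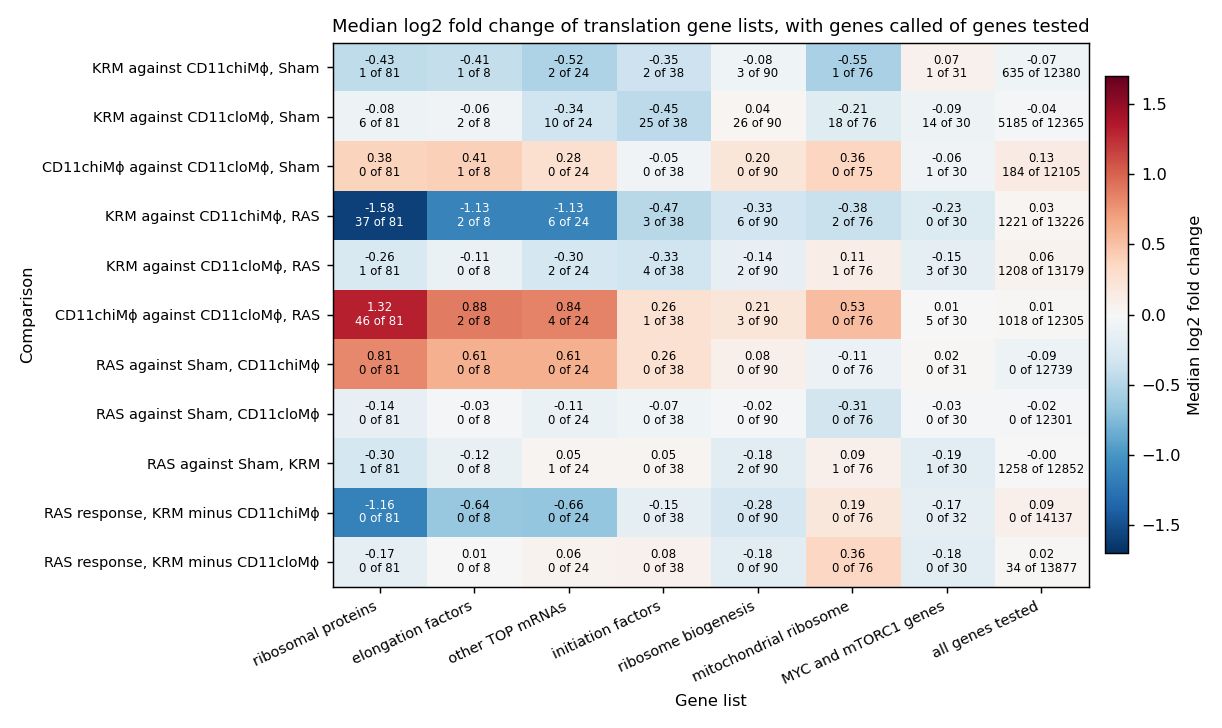
Heat map of the median log2 fold change of the ribosomal protein genes, of 6 other lists of translation genes and of all genes tested (columns) in each comparison (rows), with the genes called of those tested written in each cell. In KRM against CD11chiMϕ RAS the ribosomal proteins are at -1.58, the elongation factors and other TOP genes at -1.13, and all genes at 0.03.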

How the data were processed

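The 21 libraries were made with the SMART-Seq v4 ultra low input kit and Nextera XT. The authors aligned paired-end reads to mm10, assigned them to Ensembl genes, and deposited estimated counts per gene, of which 9.7% to 14.232% per library are not whole. Their second deposited table holds log2 values of TPM after quantile normalization, and it served only to check that columns of the same name correspond. The submitters' notes name DESeq2.

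Counts of rows with the same symbol were summed and rounded, which left 34236 symbols from 37620 rows. Shown CPM were scaled with TMM factors over the 21 libraries (marker sums with library totals alone), shares are of all counts, and intervals cover counting error only, without the error of amplification. Replicates all differed by more than counting error. The quasi-likelihood F test of edgeR 4.0.16 in R 4.3.3 (two-sided) was run on the libraries of the groups compared, with TMM factors, filterByExpr (minimum count 10, minimum total 15) and Benjamini-Hochberg adjustment over all genes tested. A gene was called at an adjusted p under 0.05, and log2 fold changes are the group named before "against" minus the other. Scripts were tested on simulated data. Lengths and gene positions are from GENCODE vM21, and start sites from RefSeq GRCm38.p6.

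The tests were repeated with the scaling of DESeq2 (median of ratios) or none beyond library totals, without the filter, in 1 fit of 6 groups, blocked by replicate number, by DESeq2 1.42.0, with pseudogene counts added, and without the Sham libraries of number 3 or each library in turn. A sum of CD11chiMϕ RAS replicates 3 and 4, the pair with the lowest chi-square per gene, was chosen after seeing the data. Between the populations of Sham kidneys, libraries of the same number deviated together, with correlations of at least 0.207, 0.201 and 0.349 in the 3 comparisons, so they were taken as paired by the data, as the labels name no shared animal. For these Sham comparisons blocked values are given where they change a call.

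The members and lists were chosen with earlier results of these data known. Named were the 5 members with the smallest adjusted p in each direction of each comparison, 15 proteins of known role, the paralog pairs, the 5 most abundant, members under the filter and 14 other genes of translation. Some of these genes are not reported here. Of the last, Npm1, Fau, Ncl, Larp1 and Mtor were not called in KRM against CD11chiMϕ RAS.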

Additional observations from a re-analysis of the deposited data

Results flagged for a closer look

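In 111 groups of 4 libraries, over 37 measures, 8 held a library far from the other 3 by Dixon's test, and chance alone would give this in about 1 of 20 groups. The measures are correlated, since the members move together. KRM Sham replicate 1 was the highest of its group in 6 of them. It had 1.36% of its counts in the members where the other 3 KRM Sham libraries had 0.958% to 1.02%. Rplp1 was at 162 CPM there (others 99.1 to 109), Rps14 at 315 (204 to 221), Rpl32 at 373 (219 to 245), Rpl36a at 51.0 (30.3 to 32.2) and Rps9 at 475 (312 to 322). The comparison of KRM with CD11cloMϕ in Sham kidneys called 24 members without this library and 6 with it. CD11chiMϕ RAS replicate 2 was the highest of its group for Rpl5, at 21.3 CPM (others 6.07 to 6.75), and the lowest for Rpl7l1, at 52.0 CPM (others 95.3 to 99.1). It also had the lowest total of the 21 libraries, 6891149 counts.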

How the results depend on the processing

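The median log2 fold change of the members stayed between -1.78 and -1.26 in KRM against CD11chiMϕ RAS and between 1.03 and 1.55 in CD11chiMϕ against CD11cloMϕ RAS, and changed sign in KRM against CD11cloMϕ Sham (-0.28 to 0.05) and in the response of KRM minus CD11cloMϕ (-0.35 to 0.02). Of the alternative values of named members 170 kept their call, 119 lost it and 0 reversed. The counts of called members moved more. Shares of all genes called are given for the main edgeR fits only, so counts from DESeq2 and the other alternatives have none beside them. In KRM against CD11chiMϕ Sham the 1 call became 0 with total library size, no filter, 1 fit over 6 groups, the replicate block or pseudogene counts added, 10 with DESeq2 and 2 without the Sham libraries of number 3, and 0 to 4 without 1 library. In KRM against CD11cloMϕ Sham the 6 calls became 10 with total library size or DESeq2, 3 with 1 fit, 5 with the replicate block, and 2 to 24 without 1 library. In CD11chiMϕ against CD11cloMϕ Sham 1 was called with DESeq2 and 1 without the Sham libraries of number 3, and 0 to 1 without 1 library.

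In KRM against CD11chiMϕ RAS the 37 calls became 59 with no filter, 74 with 1 fit or DESeq2, 0 with the replicate block or with CD11chiMϕ RAS replicates 3 and 4 summed, and 0 to 75 without 1 library. In CD11chiMϕ against CD11cloMϕ RAS the 46 calls became 72 with 1 fit, 71 with DESeq2, 47 with the block, 0 with replicates 3 and 4 summed and 0 to 73 without 1 library. In KRM against CD11cloMϕ RAS the 1 call became 0 with total library size, no filter, the block or pseudogene counts, 2 with 1 fit and 11 with DESeq2, and 0 to 1 without 1 library. In RAS against Sham the 1 call in KRM became 0 with median of ratios, 1 fit, the block or pseudogene counts and 5 with DESeq2, and 0 to 7 without 1 library. CD11chiMϕ and CD11cloMϕ had 0 to 0. DESeq2 called 7 in the response of KRM minus CD11chiMϕ, which had 0 to 3 without 1 library, and KRM minus CD11cloMϕ had 0 to 1. The causes were not tested.

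The replicate numbers were taken to pair the libraries of Sham populations only. Between the RAS populations the correlations were 0.0535 to 0.362 (KRM with CD11chiMϕ), 0.0726 to 0.505 (KRM with CD11cloMϕ) and 0.0695 to 0.249 (CD11chiMϕ with CD11cloMϕ). Some RAS pairs thus reached the Sham values and others did not, and whether libraries of 1 number share animals there cannot be told. In RAS against Sham the lowest correlations were -0.196, 0.0758 and -0.167. With the block Rpl10 was at adjusted p-values of 0.103 (KRM against CD11cloMϕ RAS) and 0.184 (RAS against Sham, KRM) by edgeR. The 3 members under the filter were not tested.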
